A study of Mus musculus with 2 samples.

Results

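The genes described here are 10 genes of the integrated stress response, taken by symbol: the kinases Eif2ak1 (HRI), Eif2ak2 (PKR), Eif2ak3 (PERK) and Eif2ak4 (GCN2), the phosphatase subunits Ppp1r15a (GADD34) and Ppp1r15b (CReP), and the effectors Atf4, Atf5, Ddit3 (CHOP) and Trib3. All 10 were found among the 43346 Ensembl gene rows of the deposited tables. PolyA-selected RNA was sequenced as paired ends in 2 libraries of G1E-ER4 cells, an immortalised mouse erythroid line. The line was made from GATA1-null G1E cells and carries GATA1 joined to the ligand-binding domain of the oestrogen receptor, which makes GATA1 activity depend on added estradiol. Both libraries came from cells given 10 nM 17beta-estradiol for 14 h, and they form 1 group of 2 numbered biological replicates with the same fusion gene and the same treatment. Because 1 biosample record covers both, some or all of their spread could be technical. With 1 condition analysed here, the values describe levels and the distance between the libraries, and no response to estradiol can be read from them. In such bulk RNA, fewer cells of a type and less RNA per cell cannot be told apart.

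The integrated stress response acts on eIF2, the factor that brings the initiator tRNA to the ribosome. Each of the kinases phosphorylates the alpha subunit of eIF2 on a different cue: HRI when haem is short, PKR on double-stranded RNA, PERK on unfolded protein in the endoplasmic reticulum, and GCN2 on uncharged tRNA. Phosphorylated eIF2 blocks its exchange factor eIF2B, so most translation falls while mRNAs with suitable upstream reading frames, such as that of ATF4, are translated more. A phosphatase with a GADD34 or CReP subunit reverses the mark. In red cell precursors HRI is known for matching globin synthesis to the supply of haem. These steps act on protein and phosphate, which mRNA levels do not measure.

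The libraries held 60097379 expected counts in replicate 2 and 38395481 in replicate 1. The cells carried the marks of their label: all 9 erythroid markers were at 1 TPM (transcripts per 1000000) or more in both libraries, and together they reached 83893 TPM in replicate 2 and 32921 TPM in replicate 1. None of 6 granulocyte and macrophage, 4 lymphoid or 4 fibroblast and endothelial markers reached that level in both, while 2 of 4 megakaryocyte markers did. Of the erythroid markers, 6 were higher in replicate 2 and 1 was higher in replicate 1 by the test described next, and mitochondrial and globin genes took 8.38% of the TPM in replicate 2 and 3.24% in replicate 1; the part of these differences in those given below was not tested. The libraries differed widely. An exact binomial test of 1 library against the other, called at an adjusted p under 0.05 with a fold of at least 1.5, separated 4664 of 11230 genes tested (41.5%), of which 22.8% of those tested were higher in replicate 2 and 18.7% were higher in replicate 1. By the same rule 4 of the 10 stress response genes were called, Ddit3 and Trib3 higher in replicate 2 and Eif2ak1 and Ppp1r15b higher in replicate 1. That is a share close to the background, and the test covers counting error only, since it compares 2 libraries and not 2 conditions. The test given next counts the difference between the libraries as part of their spread, so its calls cannot settle whether these genes differ. With edgeR's exact test, which takes the dispersion from the 2 libraries themselves, 0 of the 10 were called, 0 had an unadjusted p under 0.05, and 0.98% of all genes tested were called.

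All 10 genes were expressed, and 6 of them stood above 50 TPM in both libraries. The median of their mean levels was 89.1 TPM, against 18.7 TPM over 8407 protein-coding genes with a mean of at least 1 TPM. Within each library the median of the 10 was lower, at 64.3 TPM in replicate 2 and 67.5 TPM in replicate 1. By the longest coding transcript the median of the means was 32.6 TPM, and no background by that transcript is given here. Atf5 was the most abundant, followed by Ppp1r15a. Next came Atf4, Ppp1r15b, Eif2ak1 and Ddit3, with means of 88.4 to 96.1 TPM, and below them Trib3, Eif2ak2, Eif2ak4 and Eif2ak3. Within each library the 4 genes with close means lay further apart and in a different order. They ran from 61.4 TPM (Eif2ak1) to 121 TPM (Ddit3) in replicate 2. In replicate 1 they ran from 55.7 TPM (Ddit3) to 120 TPM (Ppp1r15b). By the longest coding transcript their means ran from 9.04 to 96.1 TPM. Of the 9 neighbouring pairs in the order of mean TPM, 3 differed by more than the spread, meaning that the log2 ratio of TPM kept its sign between the libraries and its mean exceeded 2 times the range. These were Ppp1r15a over Atf4, Ddit3 over Trib3 and Eif2ak2 over Eif2ak4, the last of which turns round by the longest coding transcripts (log2 ratio 0.42 for the genes and -2.52 for the transcripts). The neighbours among Atf4, Ppp1r15b, Eif2ak1 and Ddit3 did not differ beyond that spread, nor did Atf5 and Ppp1r15a, Trib3 and Eif2ak2, or Eif2ak4 and Eif2ak3.

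**Figure D1:**
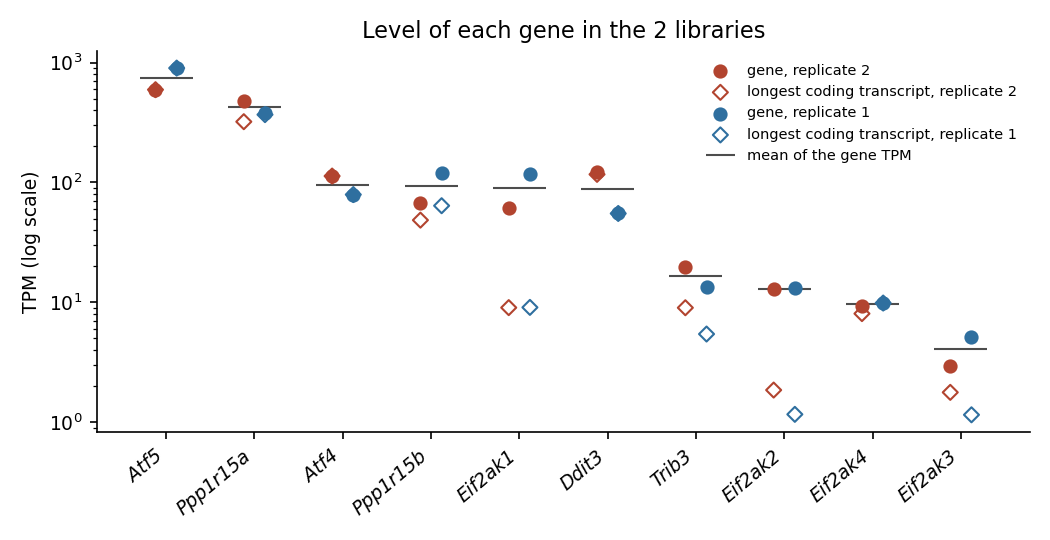
Level of each gene in TPM on a log axis, ordered by the mean of the 2 libraries; filled circles are the gene, open diamonds its transcript with the longest complete coding sequence, red for replicate 2 and blue for replicate 1, and the line is the mean of the gene's 2 values. The diamonds of Eif2ak1 and Eif2ak2 lie far below their circles, while those of Atf4 and Atf5 coincide with them. For Atf4 this is fixed, since only 1 transcript was quantified.

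The kinase genes were led by Eif2ak1, which encodes the haem-regulated kinase HRI and lies on chromosome 5 from 143817788 to 143904251 (GRCm38, plus strand). The gene had 61.4 TPM in replicate 2 and 118 TPM in replicate 1, a mean of 89.7 ± 40.01 TPM (SD, n = 2), which put it at a percentile rank of 82.4 among the 8407 expressed protein-coding genes. It held 70.9% of the summed TPM of the 4 kinase genes in replicate 2 and 80.8% in replicate 1. HRI was thus the most abundant of the kinase genes in both libraries when all transcripts of a gene were summed.

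Most of that level was assigned to a transcript that does not encode the kinase. Eif2ak1-202, which GENCODE classes as a retained intron, held 85.3% of the gene's TPM in replicate 2 and 92.0% in replicate 1. It is 1654 bases long and has 690 bases in common with the exons of the coding transcript, between positions 44 and 733 of 4325, plus 964 bases that those exons lack. The coding transcript Eif2ak1-201, with 619 codons, was estimated at 9.02 TPM in replicate 2 and 9.06 TPM in replicate 1, from 2049 expected counts in replicate 2 and 1154 in replicate 1. The coding level was thus nearly equal in the libraries while the gene level was not. By shares of counts, which are not divided by length, the coding transcript held 32.4% of the gene in replicate 2 and 18.8% in replicate 1.

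The difference between the libraries followed the same division. Eif2ak1 as a gene had a log2 ratio of replicate 2 over replicate 1 of -0.72, which is 1.64-fold higher in replicate 1 (adjusted p = 1.2e-166, exact binomial test over 11230 genes). The retained-intron transcript alone had a log2 ratio of -0.98 and the coding transcript one of 0.069. Shares between transcripts are estimates of the authors' quantifier, and reads along the gene were not analysed here. Aimp2, a scaffold of the tRNA synthetase complex on the opposite strand, overlaps 487 exon bases of Eif2ak1-201 and none of Eif2ak1-202; it had 204 TPM in replicate 2 and 65.8 TPM in replicate 1, the strand setting of the counting is not given in the sources used here, and its part in the result was not tested.

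**Figure D2:**
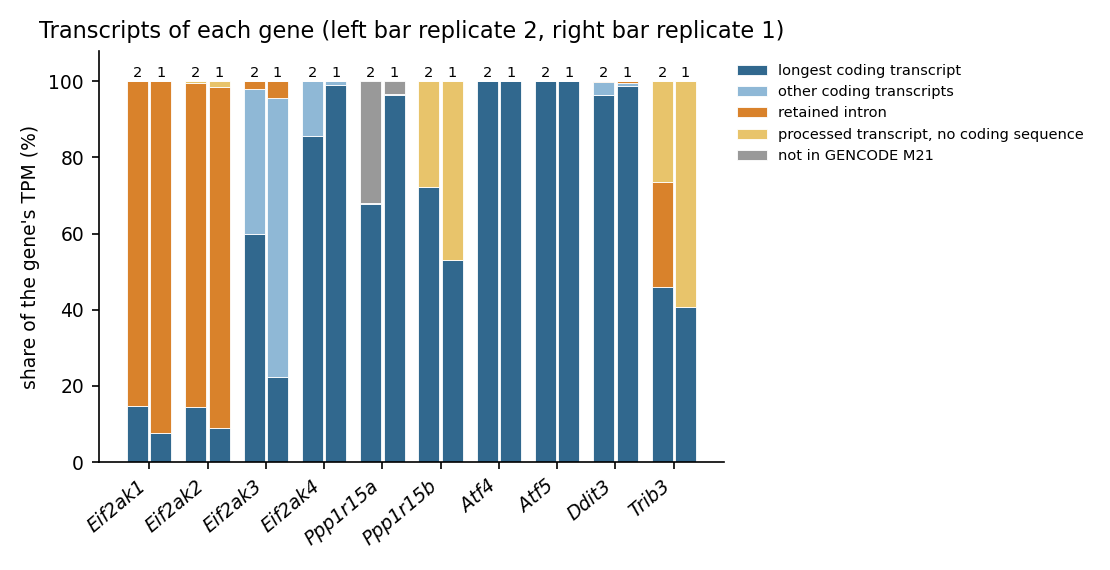
Share of each gene's TPM, in percent, by class of transcript, with replicate 2 as the left bar and replicate 1 as the right bar of each gene. The retained-intron transcript Eif2ak1-202 alone takes 85.3% of Eif2ak1 in replicate 2 and 92.0% in replicate 1, whereas Atf4 and Atf5 are wholly in their longest coding transcript. For Atf4 no other transcript was quantified.

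Eif2ak2, the kinase PKR that double-stranded RNA activates, was also placed mostly on a retained-intron transcript by TPM, but not by counts in replicate 2; it lies on chromosome 17 from 78852564 to 78882573 (minus strand; this and all positions below are on GRCm38). The gene had 12.8 TPM in replicate 2 and 13.0 TPM in replicate 1 (mean 12.9 ± 0.163, SD, n = 2). The retained-intron transcript Eif2ak2-204, 704 bases long, held 85.1% of it in replicate 2 and 89.6% in replicate 1. The coding transcript Eif2ak2-201, with 515 codons, had 1.85 TPM in replicate 2 and 1.16 TPM in replicate 1. By share of counts, however, Eif2ak2-201 held 56.2% in replicate 2 and 42.4% in replicate 1, and Eif2ak2-204 held 43.6% in replicate 2 and 56.9% in replicate 1. Of the 10 genes, Eif2ak1 and Eif2ak2 were the 2 led by a transcript with no coding sequence by mean share of TPM, and for Eif2ak2 that order turned by counts in replicate 2. As a gene it was not called different, with a log2 ratio of 0.34.

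Eif2ak3 encodes PERK, the kinase that spans the membrane of the endoplasmic reticulum, and it was the lowest of the 10 genes; it lies on chromosome 6 from 70844515 to 70905245 (plus strand). The gene had 2.96 TPM in replicate 2 and 5.13 TPM in replicate 1, from 476 expected counts (95% exact Poisson interval 434.2 to 520.7) in replicate 2 and 259 (228.4 to 292.5) in replicate 1. The intervals cover counting error only. By TPM the gene's leading transcript was not the same in both libraries: the short coding model Eif2ak3-204, 927 bases long, held 38.2% in replicate 2 and 73.2% in replicate 1, and the full Eif2ak3-201, with 1114 codons, held 59.9% in replicate 2 and 22.4% in replicate 1. By share of counts Eif2ak3-201 led in both, with 88.4% in replicate 2 and 58.9% in replicate 1. The level in TPM and the counts therefore pointed different ways, with a TPM that was 1.73 times as high in replicate 1 and a log2 ratio of counts of 0.12 (adjusted p = 0.35, exact binomial test), not called.

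Eif2ak4, the amino acid sensor GCN2, on chromosome 2 from 118388618 to 118475234 (plus strand), had the log2 ratio of counts nearest 0 among the kinase genes. The gene had 9.38 TPM in replicate 2 and 9.95 TPM in replicate 1 (mean 9.67 ± 0.403, SD, n = 2), and that log2 ratio was -0.02. Its transcript Eif2ak4-201, with 1648 codons, held 85.7% of the gene in replicate 2 and 98.9% in replicate 1.

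Set against each other, HRI exceeded the other kinase genes by all transcripts. The log2 ratio of Eif2ak1 was 2.71 ± 0.648 over Eif2ak2, 4.41 ± 0.119 over Eif2ak3 and 3.13 ± 0.606 over Eif2ak4 (SD, n = 2), each larger than the spread. By the longest coding transcript, an alternative chosen after the data had been seen, Eif2ak1 over Eif2ak4 came to 0.02 ± 0.200 and was not larger than the spread, while Eif2ak1 stayed above Eif2ak2 by 2.54 and above Eif2ak3 by 2.58. By that transcript HRI had 9.04 ± 0.0283 TPM, GCN2 8.95 ± 1.28 TPM, PKR 1.51 ± 0.488 TPM and PERK 1.46 ± 0.438 TPM (SD, n = 2). Summed over all coding transcripts, where PERK had 3.9 TPM, Eif2ak1 over Eif2ak3 was 1.24 ± 0.517 and within the spread. On that sum HRI held 39.0% of the kinase TPM in replicate 2 and 36.1% in replicate 1, and GCN2 held 40.5% in replicate 2 and 39.7% in replicate 1.

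**Figure D3:**
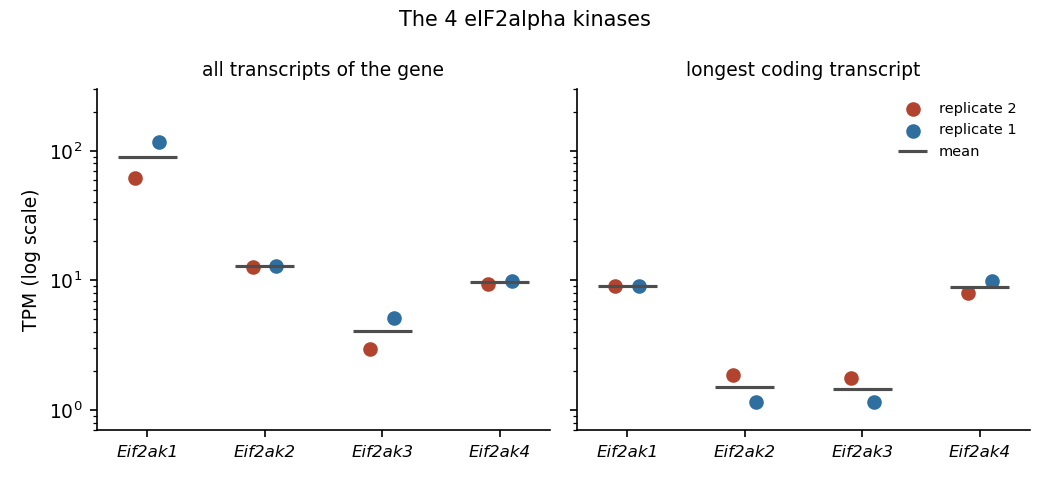
Level of the 4 kinase genes in TPM on a log axis, left over all transcripts of the gene and right for the longest coding transcript; red points are replicate 2, blue points replicate 1 and lines their mean. Eif2ak1 stands alone at 89.7 TPM on the left and beside Eif2ak4 at about 9 TPM on the right.

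The phosphatase subunits were both abundant. Ppp1r15a lies on chromosome 7 from 45522916 to 45526268 (minus strand) and Ppp1r15b on chromosome 1 from 133131143 to 133139783 (plus strand). Ppp1r15a encodes GADD34, the subunit that stress induces, and had 474 TPM in replicate 2 and 382 TPM in replicate 1 (mean 428 ± 64.9, SD, n = 2), a percentile rank of 96.3 among expressed coding genes. Ppp1r15b encodes CReP, the constitutive subunit, and had 67.2 TPM in replicate 2 and 120 TPM in replicate 1 (mean 93.8 ± 37.6, SD, n = 2). GADD34 was the higher in both libraries, but the log2 ratio of Ppp1r15a over Ppp1r15b, 2.82 in replicate 2 and 1.67 in replicate 1, did not exceed 2 times its range. By the longest coding transcripts the ratio was 2.63 ± 0.144 and did.

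Transcripts differed here as well. Ppp1r15b-202, a processed transcript of 3688 bases with no coding sequence of its own, held 27.9% of the gene in replicate 2 and 46.9% in replicate 1, and the coding Ppp1r15b-201 had 48.5 TPM in replicate 2 and 64.0 TPM in replicate 1. The gene was 1.57-fold higher in replicate 1 (log2 ratio -0.65) and was called, and by the coding transcript the log2 ratio was -0.32, under the fold minimum. Ppp1r15a did not pass the fold minimum, with a log2 ratio of -0.06. A transcript of 389 bases that GENCODE M21 does not list took 31.6% of its TPM in replicate 2 but 2.92% in replicate 1, although of the gene's counts it held 4.72% in replicate 2 and 0.332% in replicate 1. An unnamed gene on the opposite strand, Gm26616, shares 640 exon bases with Ppp1r15b-201; it had 15.2 TPM in replicate 2 and 48.8 TPM in replicate 1, the direction of Ppp1r15b, and its part in the result was not tested.

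The effectors held the most abundant message. Atf5, a basic leucine zipper factor translated under stress like ATF4, had 595 TPM in replicate 2 and 901 TPM in replicate 1 (mean 748 ± 216, SD, n = 2), a percentile rank of 97.8. Atf4, the central transcription factor of the response, had 113 TPM in replicate 2 and 79.2 TPM in replicate 1 (mean 96.1 ± 24.0). The Atf5 message exceeded that of Atf4 in both libraries, with a log2 ratio of Atf4 over Atf5 of -2.95 ± 0.786 (SD, n = 2), larger than the spread. Atf4 lies on chromosome 15 from 80255184 to 80257541 (plus strand) and Atf5 on chromosome 7 from 44812256 to 44816658 (minus strand). All counts of each gene were assigned to 1 transcript, Atf4-201 with 349 codons and Atf5-201 with 283 codons. For Atf4 this was the only transcript quantified, so its share was fixed, whereas Atf5 had 2.

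Neither Atf4 nor Atf5 was called different between the libraries. Atf4 had a log2 ratio of 0.58 and lay just under the fold minimum, while Atf5 had one of -0.53. Their directions were opposite. Atf5 is rich in GC, at 61.7%, and falls in the highest of 10 equal bins of genes by GC content, whose median log2 ratio of -0.44 was the lowest of the bins. Relative to that median, a setting added after the data had been seen, Atf5 came to -0.08. Atf4, relative to the median of its own bin, came to 0.38. Of the genes called, the same subtraction moved Eif2ak1 from -0.72 to -0.92 and Ppp1r15b from -0.65 to -0.72. It moved Trib3 from 0.67 to 0.74 and Ddit3 from 1.17 to 1.04. The part of GC content in these differences was not tested further.

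Ddit3, the factor CHOP that ATF4 induces and that promotes cell death, gave the largest difference between the libraries among the 10 genes; it lies on chromosome 10 from 127290774 to 127296288 (plus strand). The gene had 121 TPM in replicate 2 and 55.7 TPM in replicate 1 (mean 88.4 ± 46.2, SD, n = 2), from 4776 expected counts in replicate 2 and 1258 in replicate 1. The fold was 2.24 (log2 ratio 1.17, adjusted p = 9.2e-164, exact binomial test), and nearly all of it was in the coding transcript Ddit3-201, which held 96.5% in replicate 2 and 98.8% in replicate 1. Mars, a methionyl-tRNA synthetase gene on the opposite strand, shares 68 exon bases with Ddit3-201. It had 99.8 TPM in replicate 2 and 38.4 TPM in replicate 1. By scaled counts, however, Mars had a log2 ratio of 0.11 and was not called. The part of Mars in the result was not tested.

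Trib3, a pseudokinase that CHOP and ATF4 induce and that restrains them, was the lowest effector, with 19.6 TPM in replicate 2 and 13.3 TPM in replicate 1 (mean 16.5 ± 4.43, SD, n = 2). It was 1.59-fold higher in replicate 2 (log2 ratio 0.67, adjusted p = 7.3e-17, exact binomial test). The gene lies on chromosome 2 from 152337422 to 152344032 (minus strand). The coding Trib3-201, with 354 codons, had 9.0 TPM in replicate 2 and 5.43 TPM in replicate 1. The shorter Trib3-202, a processed transcript with no coding sequence of its own, held 26.5% of the TPM in replicate 2 and 59.3% in replicate 1. A retained-intron transcript of 504 bases held 27.6% in replicate 2 and 0 in replicate 1. By share of counts Trib3-201 led in both, with 79.3% in replicate 2 and 72.4% in replicate 1. Atf4, Ddit3 and Trib3 thus all had more counts in replicate 2 after scaling, but Atf4 missed the call, and with 2 libraries this is 1 difference read on several genes.

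Levels of the effectors kept their order within each library only in part. Ddit3 over Trib3 (2.34 ± 0.400) and Atf4 over Trib3 (2.54 ± 0.0277) were log2 ratios larger than the spread. Atf4 over Ddit3 was 0.20 ± 0.428, with Ddit3 the higher in replicate 2 and Atf4 the higher in replicate 1. Over the 10 pairs of genes compared, 7 were larger than the spread.

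**Figure D4:**
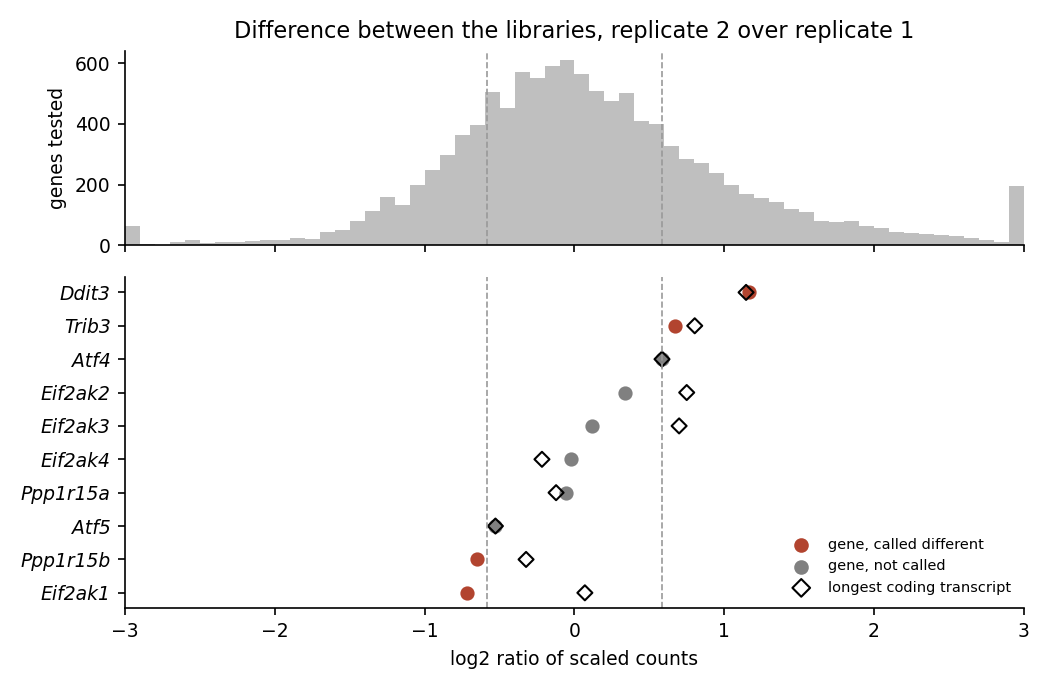
Difference between the libraries as the log2 ratio of scaled counts, replicate 2 over replicate 1: above, the number of the 11230 tested genes per bin, with the 242 beyond 3 drawn at the edges, and below, the 10 genes as red points where called and grey where not, with open diamonds for the longest coding transcript. Dashed lines mark the 1.5-fold minimum; Ddit3 lies farthest to the right at 1.17, and Eif2ak1 moves to 0.069 by its coding transcript.

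Sequence features of the 10 genes were read from their reference sequences. Some members, such as Atf4, belong to the response as mRNAs translated through upstream frames. The counts of such frames are therefore not independent of the choice of members. Upstream ATG codons, at which scanning ribosomes can start before the main reading frame, were present in the annotated leaders of 7 of the 10 longest coding transcripts, and 6 had 2 or more. Over 8371 expressed coding genes the shares were 45.7% with at least 1 and 23.8% with 2 or more. An upstream frame that runs past the main start was found in 4 of the 10 (Eif2ak2, Eif2ak3, Atf4 and Atf5), against 14.9% of the expressed genes. Eif2ak1, Eif2ak4 and Trib3 had no upstream ATG. Leaders of the 10 transcripts ran from 91 to 604 bases, against a median of 152 bases over the 8371 genes. The shares were not adjusted for leader length. These are counts of letters in annotated leaders, and translation was not measured.

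The start codons of Atf4 and Atf5 are shown because both leaders have the same layout, a very short upstream frame followed by one that overlaps the main start; the leaders are 594 and 373 bases long. In each line the start codon is in capitals with 6 bases on either side, read from GENCODE M21 transcripts on GRCm38, Atf4 from chromosome 15 (plus strand) and Atf5 from chromosome 7 (minus strand).
Atf4, short upstream frame of 3 codons, position 399: gccaccATGgcgtat
Atf4, overlapping frame of 59 codons, position 498: taagccATGgcgctc
Atf4, main start, position 595: cacaacATGaccgag
Atf5, short upstream frame of 3 codons, position 122: cgcgcaATGgctctg
Atf5, overlapping frame of 58 codons, position 253: gccgccATGgagtcc
Atf5, main start, position 374: acagccATGtcactc
The leader of Atf4 held a further upstream ATG at position 120, with a frame of 36 codons. In Ddit3 the upstream ATGs at positions 56 and 65 open the same frame, of 34 codons from the first and 31 from the next, which ended within the leader of 186 bases. The 3 upstream frames of Ppp1r15a, of 45, 34 and 26 codons, also ended within its leader of 283 bases.

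Promoter windows from 250 bases before to 50 after the start site were taken from RefSeq (GRCm38.p6) and searched on both strands for TGATGNAA, the core of the composite element that ATF4 binds with C/EBP factors. It was found in 3.97% of 32817 windows and in 4.51% of the 26994 genes these belong to. Among the 9 of the 10 genes with a window in the table it was found in Trib3 alone, and among the ATF4 and CHOP targets with a window it was found in 10 of 29 genes. The Trib3 window is shown with those of 4 targets chosen to show the element in genes at different levels, Asns and Aars as expressed targets and Chac1 and Fgf21 as targets at 0, the element in capitals with 8 bases on either side; coordinates and strand are those of the printed bases, and the Aars window holds 1 further match that is not printed.
Trib3, chr2:152344031-152344054, plus strand: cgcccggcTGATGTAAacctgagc
Asns, chr6:7693217-7693240, minus strand: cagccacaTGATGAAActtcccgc
Aars, chr8:111033722-111033745, minus strand: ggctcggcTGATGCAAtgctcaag
Chac1, chr2:119351041-119351064, minus strand: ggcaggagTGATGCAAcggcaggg
Fgf21, chr7:45615614-45615637, plus strand: tggacggaTGATGCAAtggggggg
The same letters thus stood in promoters of genes with counts and of genes without them in these cells. Trib3 lies on the minus strand, and its match is at bases 14 to 21 after the RefSeq start site. The GENCODE gene starts at 152344032, so by that annotation the match lies upstream of the start. AGATAA, a core that GATA factors bind, was found in 11.2% of all windows, in 12.7% of genes, and in those of Ppp1r15a and Ddit3 among the 10 genes. A match is a match of letters, and no binding was measured.

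Around the 10 genes, 92 other genes of the pathway were listed in 5 groups, of which 75 were expressed in both libraries. Of the 80 tested, 29 (36.2%) were called different between the libraries, 19 higher in replicate 2 and 10 higher in replicate 1, against 41.5% of all genes. The median log2 ratio of these 80 was 0.25, against 0.01 over all genes tested.

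The initiation machinery on which the kinases act was present: 12 of 13 genes of eIF2, eIF2B and reinitiation factors were expressed, with a median of 17.3 TPM. The highest by TPM were 2 subunits of the exchange factor. Eif2b2 had 361 TPM in replicate 2 and 579 TPM in replicate 1, and Eif2b4 had 216 TPM in replicate 2 and 353 TPM in replicate 1. For Eif2b2 the scaled counts pointed the other way, 1.19-fold higher in replicate 2. Those of Eif2b4 were 1.39-fold higher in replicate 1. Denr, a reinitiation factor, had 102 TPM in replicate 2 and 137 TPM in replicate 1, and Eif5, which triggers hydrolysis of GTP on eIF2, had 38.2 TPM in replicate 2 and 42.1 TPM in replicate 1. None of these 4 was called, while 5 of the 13 were, 4 higher in replicate 2 and 1 higher in replicate 1, together 38.5% against 41.5% of all genes. By expected counts, which are not divided by length, Eif5 exceeded Eif2b4 in replicate 2 (7869 against 6400). It fell below Eif2b4 in replicate 1 (4879 against 5269). Denr had 1342 counts in replicate 2 and 992 in replicate 1. The part of short transcripts in the order by TPM was not tested.

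Regulators of the kinases and phosphatase were the most abundant group, with a median of 96.3 TPM and 14 of 16 expressed. Hspa8, Hsp90ab1 and Cdc37 encode chaperones and a cochaperone that in rabbit reticulocyte lysate bind HRI. Hspa8 had 845 TPM in replicate 2 and 464 TPM in replicate 1 and was called (2.03-fold higher in replicate 2). Hsp90ab1 had 436 TPM in replicate 2 and 144 TPM in replicate 1 and was called (2.72-fold higher in replicate 2). Cdc37 had 239 TPM in replicate 2 and 284 TPM in replicate 1 and was not called. In this group 4 of 16 genes were called (25%), against 41.5% of all genes. The phosphatase's catalytic subunit Ppp1ca had 603 TPM in replicate 2 and 482 TPM in replicate 1 and was not called.

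Of the 5 partner factors tested, 2 were called higher in replicate 2 and 2 higher in replicate 1, against 22.8% and 18.7% of all genes, a list too short to read against those shares. Cebpb, which dimerises with ATF4 and CHOP, had 53.3 TPM in replicate 2 and 132 TPM in replicate 1 (2.37-fold higher in replicate 1). Jund, a partner in AP-1 dimers, had 90.5 TPM in replicate 2 and 220 TPM in replicate 1 (2.31-fold higher in replicate 1). Nfe2l2, the antioxidant factor NRF2 that PERK is known to phosphorylate, had 17.4 TPM in replicate 2 and 8.65 TPM in replicate 1 (2.04-fold higher in replicate 2). Cebpg, a further partner of ATF4, had 33.2 TPM in replicate 2 and 32.8 TPM in replicate 1, close in both. Atf3, an early target of ATF4, had 0 counts in both libraries, where a count of 0 allows up to 0.0499 counts in 1000000 in replicate 2 and 0.0781 in replicate 1.

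Targets of ATF4 and CHOP were expressed in 25 of 36 cases, with a median of 19.2 TPM, and 10 were under 0.1 TPM in both libraries. Eif4ebp1, the repressor of cap-dependent translation, had 670 TPM in replicate 2 and 589 TPM in replicate 1 and was not called. Shmt2, a mitochondrial enzyme of serine and one-carbon metabolism, had 464 TPM in replicate 2 and 295 TPM in replicate 1 and was called (1.65-fold higher in replicate 2). Bbc3, the cell death gene PUMA, had 88.8 TPM in replicate 2 and 355 TPM in replicate 1 and was called (2.51-fold higher in replicate 1). Sqstm1, an autophagy receptor at 149 TPM in replicate 2 and 221 TPM in replicate 1, was not called. Of the 26 targets tested, 6 were called higher in replicate 2 and 3 higher in replicate 1, in all 34.6% against 41.5% of all genes.

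Past 3-fold were 2 targets. Psph, which makes the last step of serine synthesis, had 18.6 TPM in replicate 2 and 2.03 TPM in replicate 1, and its counts were 5.85-fold higher in replicate 2. Sars, the seryl-tRNA synthetase, had 217 TPM in replicate 2 and 68.4 TPM in replicate 1, and its counts were 3.23-fold higher. Psat1, which acts just before Psph in serine synthesis, was called the other way, with 6.66 TPM in replicate 2 and 30.2 TPM in replicate 1 and counts 1.88-fold higher in replicate 1. Phgdh, the first enzyme of that pathway, and Chac1, which degrades glutathione, had 0 counts in both libraries, and Cth, which makes cysteine, had 1 count in replicate 2 and 0 in replicate 1. Asns, the asparagine synthetase that is often used as a readout of ATF4, had 41.6 TPM in replicate 2 and 65.4 TPM in replicate 1; Aars, the alanyl-tRNA synthetase, had 72.8 TPM in replicate 2 and 67.6 TPM in replicate 1; and Fgf21, a secreted stress hormone, had 0 in both. Psat1 and these last 3 genes were added to those named by rule after their values had been seen, Psat1 to complete the serine steps and the others for the sequences above.

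The other arms of the unfolded protein response, led by IRE1 and ATF6, were expressed in 19 of 20 genes at a median of 22.4 TPM. Pdia3, a disulfide isomerase, had 281 TPM in replicate 2 and 747 TPM in replicate 1 and was called (1.92-fold higher in replicate 1). Manf, a secreted factor of the endoplasmic reticulum, had 128 TPM in replicate 2 and 62.1 TPM in replicate 1 and was called (1.93-fold higher in replicate 2). Calr, a chaperone, had 144 TPM in replicate 2 and 134 TPM in replicate 1, and Atf6b, a relative of ATF6, had 100.6 TPM in replicate 2 and 128 TPM in replicate 1; neither was called. Pdia6, a further isomerase, had 12.9 TPM in replicate 2 and 2.97 TPM in replicate 1, with counts 4.28-fold higher in replicate 2. In all, 4 of the 20 were called higher in replicate 2 and 3 higher in replicate 1, together 35.0% against 41.5% of all genes. By expected counts, which are not divided by length, Pdia3 had 6271 in replicate 2 and 7113 in replicate 1. Calr, lower by TPM, had 15601 counts in replicate 2 and 7040 in replicate 1.

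**Figure D5:**
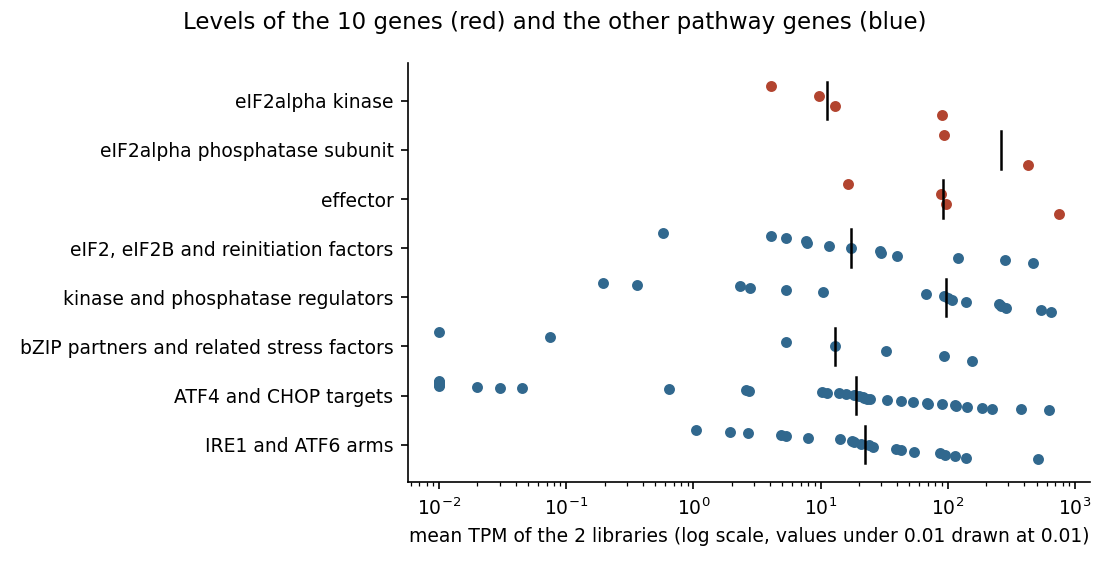
Mean TPM of the 2 libraries on a log axis for the 10 genes (red) and the other pathway genes (blue), by group, with a black line at each group's median. The ATF4 and CHOP targets spread most widely, from 0 upward, around a median of 19.2 TPM, and values under 0.01 TPM are drawn at 0.01.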

How the data were processed

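PolyA RNA of 2 libraries was analysed from gene and transcript tables, which per the file headers carry the column names of RSEM. The assembly is mm10 and the annotation GENCODE M4, per the notes in the deposited files; which aligner, quantifier release and strand setting were used is not given in the sources used here. The deposited expected counts divide reads among the features they match and need not be whole; they were rounded for tests. The deposited TPM divides counts by effective length and scales each table to 1000000, so reads placed on a short transcript give a high TPM. Isoform percent, as deposited, divides a transcript's TPM by that of the gene. Credibility bounds of TPM, deposited beside the values and handled as a signal, were not used in any result. Rows that name no gene (26345, with 2 counts in replicate 1 and 0 in replicate 2) were left out.

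Symbols, transcript classes and coordinates came from GENCODE M21 on GRCm38, the same assembly; 42462 of 43346 gene rows matched, and Gcn1 was matched through its older symbol. Genes with at least 10 counts in sum were tested with an exact two-sided binomial test against library sizes scaled by TMM (edgeR 4.0.16), with Benjamini-Hochberg adjustment over 11230 genes, because 1 library on each side leaves no residual degrees of freedom. The test was checked on simulated counts with Poisson error only and no variation between replicates. That check therefore does not cover a spread like that of these libraries. Folds had 0.5 counts added and TPM ratios a pseudocount of 0.1. A gene was expressed at 1 TPM in both libraries. The longest complete coding sequence chose the coding transcript. The text names the 10 genes, the 4 highest of each pathway list, up to 3 under 0.1 TPM in both libraries, and called genes with a fold of at least 3 and a mean of at least 5 TPM. The members and lists were chosen with earlier results of these data known. Alternatives were DESeq2 1.42.0 size factors, total counts, other minimums, edgeR's exact test, and levels of coding transcripts. Genes of like pattern were not sought, since there is 1 condition. Python 3.11.15, scipy 1.17.1 and R 4.3.3 were used.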

Additional observations from a re-analysis of the deposited data

How the results depend on the processing

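The number of the 10 genes called different between the libraries was 4 under DESeq2 size factors, total counts, a minimum of 1 count, 5 added counts, the fold of TPM and, both chosen after seeing the data, the counts of the longest coding transcript and the subtraction of the GC median. The genes were not always the same: total counts called Atf4 in place of Ppp1r15b, the fold of TPM called Atf5 in place of Trib3, and the coding transcripts called Ddit3, Trib3, Eif2ak2 and Eif2ak3, all higher in replicate 2. A fold of at least 2 left 1 of the 10 genes and 13 of 80 pathway genes, against 21.6% of all genes, and no fold minimum gave 8 and 74, against 73.5%. With edgeR's exact test and the common dispersion of the 2 libraries (coefficient of variation 0.394), 0 of 10 genes and 0 of 80 pathway genes were called, with 0 and 3 at an unadjusted p under 0.05, and 0.98% of all genes were. Pathway calls otherwise ran from 27 to 37, against 29.

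Signs turned as follows. The log2 ratio of Eif2ak1 became 0.069 by its coding transcript, those of Eif2ak2 and Eif2ak3 -0.025 and -0.77 by TPM, that of Eif2ak4 0.091 by total counts and that of Ppp1r15a 0.055 by total counts and 0.31 by TPM, and Eif2ak1 over Eif2ak4 became -0.10 by coding transcripts. For the sign turned by total counts the scaling is the cause by construction, and the others were not tested. The median level of the 10 genes was 64.3 to 67.5 TPM with 1 library left out, 94.7 TPM without mitochondrial and globin genes, 32.9 TPM by coding transcripts and 32.6 TPM by the longest coding transcript, against 89.1 TPM. Members with 2 or more transcripts at 10% in both libraries numbered 3, and 5 at 5%. Pairs larger than the spread numbered 7 to 9 of 10 and neighbours 3 to 4 of 9. No paired analysis was possible because there is 1 group. Depth limits Eif2ak3 most, with 259 counts in replicate 1.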
